A study of Mus musculus with 12 samples.

Results

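The hypoxia response and glycolysis genes are 36 named genes of mouse B16F10 melanoma cells, chosen by gene symbol from a written list. This list and the further ones below were made with earlier results of these data known. Shares set beside those of all genes are therefore descriptive. The list holds the oxygen-responsive transcription factor Hif1a and its hydroxylases, genes known as targets of hypoxia-inducible factor (HIF), the enzymes that take glucose to pyruvate, and the genes that handle pyruvate and lactate. Of the 36, 35 were among the 24421 gene symbols of the count files, and Mxi1l was not matched. A total of 33 reached 1 CPM (1 count for every 1e+06 counts that a library holds) in 3 or more of the 12 libraries and were tested with the 11638 genes that passed this filter. The remaining 2 were too low to test. Stc2, a secreted glycoprotein gene, had 0 counts in 11 libraries and 2 counts in the other. Eno1, the main enolase, had between 0 and 3 counts per library, while its near-copy Eno1b had 33 to 128. Of the 75-base stretches of Eno1b transcripts, 69.6% also occur in Eno1, and of those of Eno1, 22.6% occur in Eno1b. Whether the copy accounts for the low Eno1 counts was not tested, and enolase is reported as uncertain.

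B16F10 is a pigmented mouse melanoma line, grown here in culture from a repository stock. The 4 groups of 3 libraries were a vehicle control (DMSO), DAC (5-aza-2′-deoxycytidine, an inhibitor of DNA methylation) at 25 nM for 72 h, SFN (sulforaphane, an isothiocyanate of cruciferous vegetables) for 48 h, and DAC + SFN, in which DAC was present for 72 h and SFN for the last 48 h. The labels give 5 nM for SFN alone and 5 µM for SFN in the combination, whereas the study's methods describe a single dose of 5 µM for both. By the labels the dose differs between SFN and DAC + SFN, and which source is right was not tested. The repeats are described as independent biological ones of a single line, and each group has a library with replicate number 1, 2 and 3.

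Cells sense oxygen through prolyl hydroxylases of the Egln family, which mark the HIF-1α protein for degradation while oxygen is present. When oxygen is short, HIF-1α is stabilised and, with its partner ARNT, switches on genes for glucose uptake, glycolysis, lactate export, mitophagy and blood vessel growth. Hif1a itself is controlled mainly at the protein level, and many melanomas use glycolysis heavily.

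Between 15880957 and 27291436 reads per library were counted on genes, so that 1 CPM stood for 15.9 to 27.3 counts. The tested markers of the melanocyte lineage (Tyr, Tyrp1, Dct, Pmel, Mlana, Mitf and Sox10, 7 of 7) passed the filter, and Tyrp1, a melanosomal enzyme, had a mean of 11958 CPM in control. None of the 3 endothelial, 3 leukocyte or 2 keratinocyte markers did. Of the 4 fibroblast markers, 2 passed, Pdgfra at a mean of 2.56 CPM in control and Col1a1 at 133 CPM. Nqo1, a target of the stress factor NRF2 that SFN is known to activate, was higher than in the control of the same replicate number by 2.14, 1.92 and 1.95 on the log2 scale with SFN and by 2.36, 1.92 and 2.08 with DAC + SFN, in replicates 1, 2 and 3 respectively. The tests were made with edgeR's quasi-likelihood F-test in 1 model of all 12 libraries with the replicate number as a block, and a gene passed at a Benjamini-Hochberg adjusted p under 0.05. Errors of log2 fold changes are SE and those of group means are SD (n = 3). Since RNA came from whole cultures, fewer cells using a gene and less RNA per cell cannot be told apart.

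HIF binds DNA at short sites whose core is ACGTG or GCGTG. Both motifs were searched on both strands of the promoter windows of RefSeq (GRCm38.p6), which run from 250 bases before to 50 bases after each start site. Of the 36 genes, 31 had an entry. Bnip3l, Mxi1l, Ndrg1, Slc2a3 and Stc1 had none. One or both motifs occurred in a window of 29 of the 31 genes (93.5%), against 46.7% of all 27025 genes of the promoter table. A gene with more start sites has more windows. Counted by start site, the shares were 81.4% of 43 and 43.8% of 32851. ACGTG was found in 67.7% of the 31 and in 21.8% of all genes. It was present outside the E-box CACGTG, which also holds it, in 64.5% of the 31 and in 15.3% of all genes. GCGTG was found in 64.5% of the 31 and in 35.2% of all genes. Base composition was not matched in these shares, and a match is not evidence of binding. The windows of 6 genes are shown because their transcripts carry the patterns described below: 5 that were higher in control than with DAC + SFN in 2 of the 3 replicates or in all 3, and Hk1, which was higher with SFN. Capitals mark either motif on either strand, with CACGT and CACGC as the reverse strand forms, and overlapping matches are joined.
Ankrd37: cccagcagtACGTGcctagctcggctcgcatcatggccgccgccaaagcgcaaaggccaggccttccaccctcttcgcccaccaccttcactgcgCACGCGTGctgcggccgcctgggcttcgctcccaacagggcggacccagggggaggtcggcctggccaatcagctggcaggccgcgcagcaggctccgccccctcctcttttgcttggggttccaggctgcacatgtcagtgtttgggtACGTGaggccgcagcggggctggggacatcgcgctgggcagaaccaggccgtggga
Mgarp: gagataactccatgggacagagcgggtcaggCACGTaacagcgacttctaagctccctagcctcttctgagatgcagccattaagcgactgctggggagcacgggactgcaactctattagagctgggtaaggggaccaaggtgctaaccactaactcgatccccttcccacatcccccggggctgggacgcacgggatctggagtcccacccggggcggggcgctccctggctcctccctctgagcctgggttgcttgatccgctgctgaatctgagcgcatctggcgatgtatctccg
Bnip3: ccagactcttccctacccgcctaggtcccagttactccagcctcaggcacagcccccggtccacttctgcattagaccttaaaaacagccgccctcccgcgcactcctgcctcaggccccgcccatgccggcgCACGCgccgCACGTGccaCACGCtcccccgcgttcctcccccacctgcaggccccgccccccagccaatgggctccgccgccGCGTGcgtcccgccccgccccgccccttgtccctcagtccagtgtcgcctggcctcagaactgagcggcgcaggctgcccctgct
Aldoc: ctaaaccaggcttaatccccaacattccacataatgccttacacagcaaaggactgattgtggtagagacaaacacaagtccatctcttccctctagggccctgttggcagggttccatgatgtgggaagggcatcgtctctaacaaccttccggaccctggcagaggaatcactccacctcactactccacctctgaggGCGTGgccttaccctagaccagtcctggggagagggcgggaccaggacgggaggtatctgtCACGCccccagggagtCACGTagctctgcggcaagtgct
Slc16a3: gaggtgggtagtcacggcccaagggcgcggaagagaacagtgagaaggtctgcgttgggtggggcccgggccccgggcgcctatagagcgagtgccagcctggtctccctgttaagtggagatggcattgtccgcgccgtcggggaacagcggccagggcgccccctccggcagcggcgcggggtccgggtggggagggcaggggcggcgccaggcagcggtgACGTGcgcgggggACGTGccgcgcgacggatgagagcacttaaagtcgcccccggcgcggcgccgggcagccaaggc
Hk1: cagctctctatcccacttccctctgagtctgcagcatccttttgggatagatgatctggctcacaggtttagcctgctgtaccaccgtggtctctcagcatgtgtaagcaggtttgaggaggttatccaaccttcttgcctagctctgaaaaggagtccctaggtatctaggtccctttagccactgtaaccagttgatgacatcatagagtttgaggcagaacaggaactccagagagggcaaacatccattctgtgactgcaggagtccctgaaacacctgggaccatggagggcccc
The windows lie, in the order printed, at chr8:45999801-46000100 (minus strand), chr3:51396498-51396797 (minus strand), chr7:138909457-138909756 (minus strand), chr11:78322823-78323122 (plus strand), chr11:120948817-120949116 (plus strand) and chr10:62379859-62380158 (minus strand). Each covers the upstream flank and the start of the first exon of the RefSeq transcript. Aldoc and Hk1 each have a second start site, and for both genes the outermost is shown. The Bnip3 window held 5 matches and that of Ankrd37 4, while the shown window of Hk1 held none and its other one, at chr10:62340372-62340671, held 5.

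In the pooled fit most of these genes were lower where SFN was present by their fitted values, and a minority passed the test. With SFN, 6 of the 33 changed (18.2%), against 13.9% of all genes tested. Of these, 1 rose (8.27% of all genes rose) and 5 fell (5.65% of all genes fell). The median log2 fold change over the 33 was -0.22, and over all genes 0.00. With DAC + SFN, 15 of the 33 changed (45.5%), against 31.6% of all genes. The 3 that rose compare with 17% of all genes, and the 12 that fell with 14.7%, and the median over the 33 was -0.30. With DAC alone, none of the 33 passed (0.18% of all genes), the fitted changes ran from -0.31 (Ndrg1) to 0.19 (Ddit4), and 2 of the 33 had an unadjusted p under 0.05. DESeq2 called none with DAC either, whereas 4 passed with only the groups compared in the fit and 1 without a filter on low counts. The half-widths of the 95% confidence intervals for DAC had a median of 0.30 and reached 0.82 on the log2 scale. The 3 comparisons share the control libraries. A change above 2-fold was reached by 2 of the 33 with SFN (1.28% of all genes) and by 3 with DAC + SFN (2.66%).

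**Figure D1:**
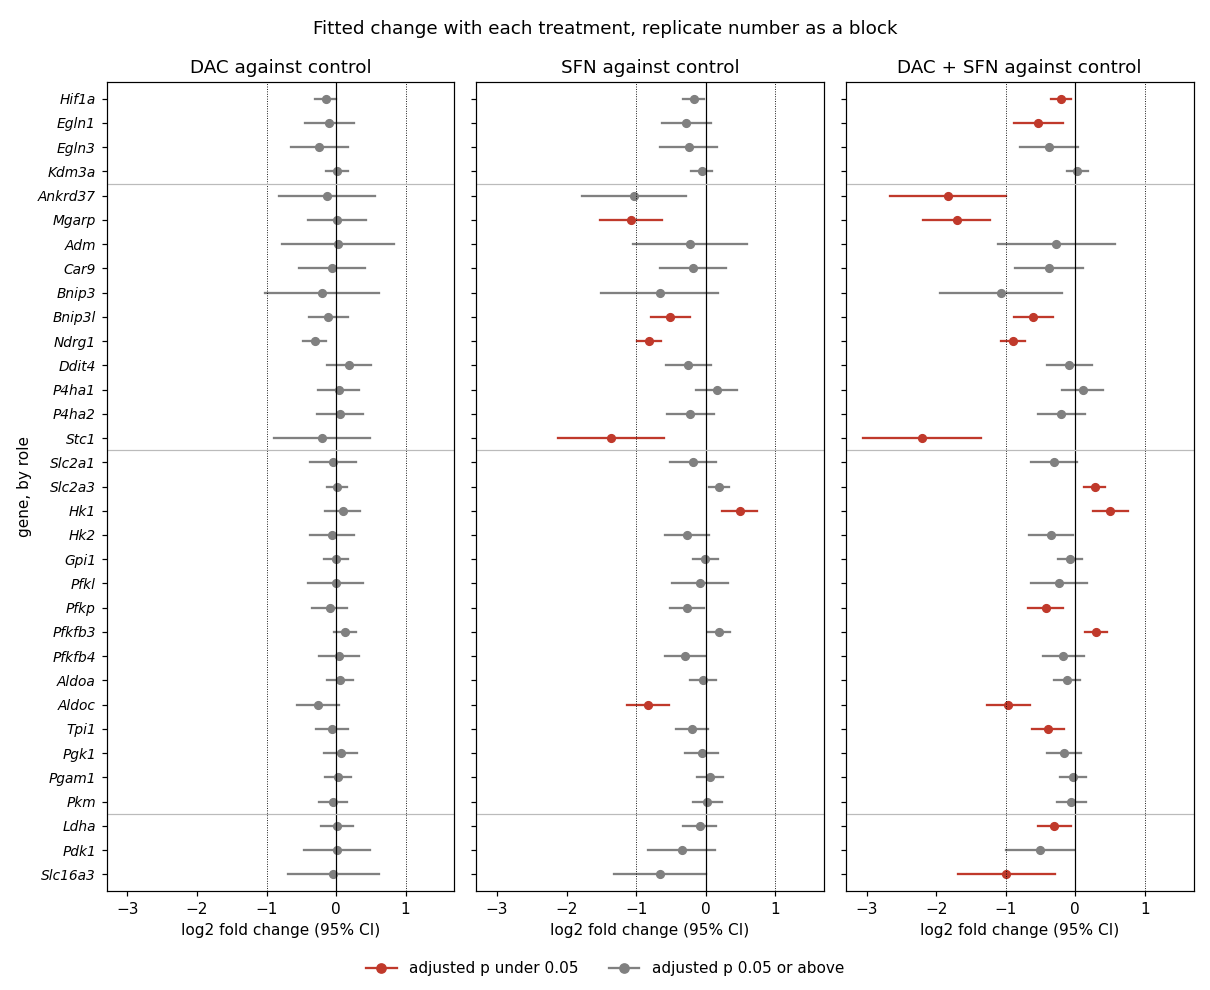
Log2 fold change against control of the 33 tested genes (rows, grouped by role) with DAC, SFN and DAC + SFN, as points with 95% confidence intervals from edgeR, red where the adjusted p was under 0.05. Dotted lines mark a 2-fold change. No gene is red with DAC, 6 are with SFN and 15 with DAC + SFN, and most points of the last lie left of 0.

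Those counts rest on the pairing of the libraries by replicate number and on single libraries. Without the replicate block, 0 of the 33 genes changed with SFN and 2 with DAC + SFN. Of the 6 calls with SFN, 3 (Ndrg1, Mgarp and Aldoc) kept an adjusted p under 0.05 with each of the 12 libraries left out in turn, and of the 15 with DAC + SFN, 8 did (Ndrg1, Mgarp, Aldoc, Stc1, Ankrd37, Bnip3l, Hk1 and Slc2a3). The count with SFN was 3 without control replicate 1 or without SFN replicate 1. The count with DAC + SFN was 9 without control replicate 1 or without DAC + SFN replicate 1, and 24 without DAC + SFN replicate 2. Leaving out replicate number 2 as a whole gave 18 with SFN and 25 with DAC + SFN (3.73% and 15.3% of all genes). Leaving out replicate number 1 gave 2 and 3 (5.37% and 12.7% of all genes).

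The genes of oxygen sensing were measured first. Per kilobase of exon, Hif1a stood at 52.4 ± 5.25 CPM in control and Egln1, the main oxygen sensor among the hydroxylases, at 35.3 ± 14.7, whereas Egln3, a hydroxylase that HIF itself induces, stood at 2.83 ± 1.72. Hif1a stood at 337, 276 and 313 CPM in control replicates 1, 2 and 3, at 303, 256 and 274 after DAC, at 291, 229 and 304 after SFN and at 269, 228 and 310.5 after DAC + SFN. Hif1a was lowest in replicate 2 of each group, and its control values overlapped those of DAC + SFN. It fell with DAC + SFN (log2 fold change -0.20 ± 0.07, adjusted p = 0.037) and -0.17 ± 0.07, adjusted p = 0.106 with SFN. The call was lost without control replicate 1 or 2 or without DAC + SFN replicate 1 or 2, with an adjusted p of up to 0.186.

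For Egln1 the control replicates 1, 2 and 3 gave 152, 66.2 and 162 CPM, those of DAC 139, 69.0 and 142, those of SFN 127, 74.2 and 101 and those of DAC + SFN 78.7, 76.8 and 90.3. In control and DAC, replicates 1 and 3 were above 139 CPM and replicate 2 was at 66.2 and 69.0, while with DAC + SFN the 3 values lay together. Egln1 fell with DAC + SFN (log2 fold change -0.53 ± 0.17, adjusted p = 0.0255). That call was lost without replicate 1 or 3 of control or of DAC + SFN, with an adjusted p of up to 0.175. Egln3 had 7.64, 2.93 and 12.1 CPM in the 3 controls, in order of replicate number, 6.17, 3.96 and 8.05 after DAC, 7.11, 2.78 and 8.75 after SFN and 5.01, 3.93 and 7.38 after DAC + SFN. The group ranges overlapped, and Egln3 did not pass in any treatment (-0.25 ± 0.19, adjusted p = 0.428 with SFN and -0.37 ± 0.20, adjusted p = 0.161 with DAC + SFN). Kdm3a, a histone demethylase induced by HIF, ranged from 165.8 to 235 CPM over the 12 libraries and did not pass with any treatment, either.

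Among the HIF targets that are not metabolic enzymes, 4 of 11 tested fell with SFN and 5 of 11 with DAC + SFN, and none rose (of all genes, 5.65% fell with SFN, 14.7% fell with DAC + SFN and 17% rose with DAC + SFN). Egln3 and Kdm3a, also induced by HIF, were grouped with the sensing genes. They are not among these 11, and neither passed. The median log2 fold change of the 11 was -0.51 with SFN, -0.61 with DAC + SFN and -0.05 with DAC. Ndrg1, a stress-responsive gene linked to suppression of metastasis, changed most steadily. In replicates 1, 2 and 3, Ndrg1 measured 91.3, 51.3 and 79.1 CPM in control, then 75.1, 42.0 and 61.3 after DAC, 48.9, 30.3 and 46.1 after SFN and 41.8, 31.8 and 43.2 after DAC + SFN. Every library with SFN, alone or combined, lay below every control library. Ndrg1 fell 1.76-fold with SFN (log2 fold change -0.81 ± 0.08, adjusted p = 1.7e-05) and -0.90 ± 0.08, adjusted p = 3.12e-06 with DAC + SFN. With DAC it was lower than its own control in all 3 replicates, and -0.31 ± 0.08, adjusted p = 0.145 did not pass.

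Mgarp, a mitochondrial protein gene, and Ankrd37, an ankyrin repeat gene known as a HIF target, are both among the genes the study displayed from these same libraries, so their direction is not independent evidence. Mgarp stood at 11.4, 2.24 and 14.3 CPM in control replicates 1, 2 and 3, at 12.2, 2.62 and 12.4 after DAC, at 5.32, 1.69 and 5.36 after SFN and at 2.50, 1.48 and 3.92 after DAC + SFN. The values of SFN and DAC + SFN were below those of control within each replicate number, although replicate 2 of control was lower than SFN replicates 1 and 3. Mgarp fell 2.11-fold with SFN (log2 fold change -1.08 ± 0.21, adjusted p = 0.00334) and -1.71 ± 0.23, adjusted p = 8.31e-05 with DAC + SFN. For Ankrd37 the control replicates 1, 2 and 3 gave 3.91, 0.82 and 4.98 CPM, those of DAC 3.27, 0.57 and 4.83, those of SFN 1.69, 0.98 and 1.68 and those of DAC + SFN 0.77, 0.77 and 0.98. In replicate 2 all 4 libraries were below 1 CPM, with 9 to 26 counts of this gene. Ankrd37 fell 3.55-fold with DAC + SFN (log2 fold change -1.83 ± 0.39, adjusted p = 0.00277), and the change with SFN did not pass (-1.03 ± 0.35, adjusted p = 0.0649). In the alternative analyses listed below, the change with SFN passed in 8 and did not in 13.

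Stc1, a secreted glycoprotein gene, had the lowest fitted value of the 33 in both treatments with SFN. Stc1 had 8.60, 1.08 and 11.8 CPM in the 3 controls, in order of replicate number, 6.997, 1.02 and 9.93 after DAC, 3.34, 1.13 and 2.94 after SFN and 1.27, 1.20 and 1.59 after DAC + SFN. Replicate 2 was near 1 CPM in every group, and replicates 1 and 3 came down to that level with DAC + SFN. Stc1 fell 4.6-fold with DAC + SFN (log2 fold change -2.20 ± 0.40, adjusted p = 0.000915) and -1.37 ± 0.36, adjusted p = 0.02 with SFN. The call with SFN was lost without replicate 1 or 3 of control or of SFN (adjusted p of up to 0.165).

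Bnip3 and Bnip3l encode related mitophagy receptors, and in control they stood at 81.0 ± 58.7 and 32.8 ± 11.1 CPM per kilobase. In replicates 1, 2 and 3, Bnip3 measured 248, 30.5 and 272 CPM in control, then 199, 40.0 and 209.6 after DAC, 129.8, 48.3 and 115 after SFN and 44.6, 58.3 and 90.7 after DAC + SFN. In replicates 1 and 3 Bnip3 was lowest with DAC + SFN and highest in control, and in replicate 2 the order was the opposite. The replicates went in opposite directions, and the fitted difference did not pass (-0.66 ± 0.39, adjusted p = 0.283 with SFN, -1.07 ± 0.41, adjusted p = 0.0608 with DAC + SFN). In the alternative analyses, Bnip3 passed with SFN in 2 and not in 20, and with DAC + SFN in 6 and not in 16. Bnip3l stood at 147, 77.3 and 155 CPM in control replicates 1, 2 and 3, at 132, 75.1 and 142 after DAC, at 94.9, 71.3 and 92.8 after SFN and at 72.8, 73.8 and 93.9 after DAC + SFN. The replicate 2 libraries lay between 71.3 and 77.3 CPM in all 4 groups, level with DAC + SFN replicate 1. Bnip3l fell 1.42-fold with SFN (log2 fold change -0.51 ± 0.13, adjusted p = 0.0181) and -0.61 ± 0.13, adjusted p = 0.00322 with DAC + SFN. The call with SFN was lost without replicate 1 or 3 of either group, with an adjusted p of up to 0.123.

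The other HIF targets of this kind did not pass with any treatment. They were Adm, a vasodilator peptide gene (1.81 to 9.91 CPM over the 12 libraries), Car9, a carbonic anhydrase of the cell surface (4.95 to 14.6 CPM), Ddit4, an inhibitor of mTOR signalling (40.6 to 102.9 CPM), and P4ha1 and P4ha2, the collagen prolyl hydroxylases (107.9 to 177.7 and 57.0 to 110.2 CPM). The lowest of the 12 values was that of control replicate 2 in all 5. In the pooled fit their log2 fold changes with DAC + SFN ran from -0.38 (Car9) to 0.11 (P4ha1). These values average replicates that moved in opposite directions. Without replicate number 2, Adm, Car9, P4ha2 and Ddit4 passed with DAC + SFN (log2 fold changes of -1.11, -0.87, -0.58 and -0.38), and P4ha1 did not (-0.18).

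**Figure D2:**
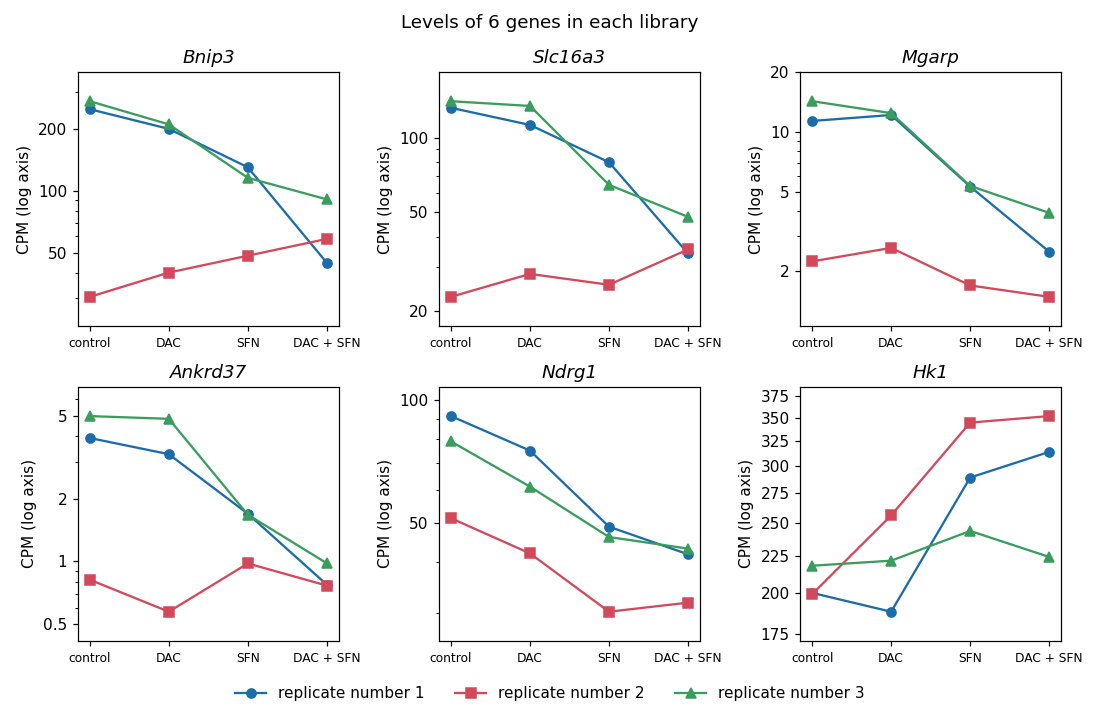
CPM on a log axis of 6 genes in the 12 libraries, with 1 line for each replicate number joining its 4 treatment groups. Bnip3 and Slc16a3 go down from control to DAC + SFN in replicates 1 and 3 and up in replicate 2, Ndrg1 goes down from control to SFN in all 3, and Hk1 goes up from control to SFN in all 3.

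Of the 15 tested genes of glucose uptake and glycolysis, 1 rose and 1 fell with SFN, and 3 rose and 3 fell with DAC + SFN. These shares are near those of all genes (8.27% up and 5.65% down with SFN, 17% up and 14.7% down with DAC + SFN). For Slc2a1 the control replicates 1, 2 and 3 gave 129, 60.8 and 121 CPM, those of DAC 113, 68.3 and 116, those of SFN 105, 76.7 and 84.1 and those of DAC + SFN 79.1, 79.9 and 80.7. Slc2a1, the widely used transporter GLUT1, did not pass (-0.31 ± 0.15, adjusted p = 0.139 with DAC + SFN). Slc2a3 had 29.4, 29.2 and 27.9 CPM in the 3 controls, in order of replicate number, 29.1, 29.7 and 28.3 after DAC, 31.8, 33.5 and 33.7 after SFN and 35.6, 36.1 and 33.2 after DAC + SFN. All 3 libraries with DAC + SFN were above all 3 controls. Slc2a3, which encodes the high-affinity transporter GLUT3, rose 1.21-fold with DAC + SFN (log2 fold change 0.28 ± 0.07, adjusted p = 0.00695).

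The hexokinases trap glucose in the cell, and here the constitutive Hk1 and the HIF-inducible Hk2 did not follow each other. In replicates 1, 2 and 3, Hk1 measured 199.9, 199 and 218 CPM in control, then 188, 256 and 222 after DAC, 289, 344 and 244 after SFN and 314, 352 and 224 after DAC + SFN. Every library with SFN or DAC + SFN was above the 3 controls, and replicates 1 and 2 differed from their controls by more than replicate 3 did. Hk1 rose 1.4-fold with SFN (log2 fold change 0.49 ± 0.12, adjusted p = 0.0134) and 0.51 ± 0.12, adjusted p = 0.00513 with DAC + SFN. The SFN call was lost without replicate 1 or 2 of control or of SFN, with an adjusted p of up to 0.101. Hk2 stood at 281, 127 and 275 CPM in control replicates 1, 2 and 3, at 261, 131 and 254 after DAC, at 212, 149 and 185 after SFN and at 179.6, 156 and 168 after DAC + SFN. Hk2 was highest in control and lowest with DAC + SFN in replicates 1 and 3, and in replicate 2 the reverse held. The change did not pass (-0.35 ± 0.15, adjusted p = 0.0823 with DAC + SFN).

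Phosphofructokinase commits sugar to glycolysis. For Pfkl the control replicates 1, 2 and 3 gave 407, 179 and 409.7 CPM, those of DAC 389, 202 and 390.2, those of SFN 342, 263 and 293 and those of DAC + SFN 259, 274 and 258. Pfkl, the liver-type subunit, did not pass (-0.24 ± 0.19, adjusted p = 0.362 with DAC + SFN). Pfkp, the platelet-type subunit, fell 1.34-fold with DAC + SFN (log2 fold change -0.43 ± 0.12, adjusted p = 0.0127), a call that was lost without replicate 1 or 3 of control or without DAC + SFN replicate 1 (adjusted p of up to 0.0903). Pfkfb3 had 33.4, 39.3 and 35.6 CPM in the 3 controls, in order of replicate number, 34.9, 49.9 and 35.2 after DAC, 38.4, 48.2 and 37.1 after SFN and 41.8, 51.3 and 40.0 after DAC + SFN. The 3 libraries with DAC + SFN were each above the highest control. Pfkfb3, whose product makes an activator of phosphofructokinase, rose 1.23-fold with DAC + SFN (log2 fold change 0.29 ± 0.07, adjusted p = 0.00779), and without control replicate 2 it did not pass (adjusted p = 0.0698). Pfkfb4, its relative, ranged from 5.72 to 10.7 CPM and did not pass with any treatment.

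In replicates 1, 2 and 3, Tpi1 measured 2126, 1320.4 and 2038 CPM in control, then 2003, 1341 and 1904 after DAC, 1757, 1396 and 1569.6 after SFN and 1284, 1358 and 1423 after DAC + SFN. Tpi1, the triose phosphate isomerase, was nearly level over the replicate 2 libraries and lower with DAC + SFN in the other two. Tpi1 fell 1.32-fold with DAC + SFN (log2 fold change -0.40 ± 0.11, adjusted p = 0.0123), which was lost without replicate 1 or 3 of control or without DAC + SFN replicate 1 (adjusted p of up to 0.0918). Aldoc stood at 88.5, 26.5 and 81.5 CPM in control replicates 1, 2 and 3, at 83.0, 17.8 and 67.8 after DAC, at 50.02, 16.8 and 41.0 after SFN and at 37.2, 18.8 and 38.3 after DAC + SFN. Aldoc, the brain-type aldolase, was below its own control in all 3 replicates of both treatments with SFN, and replicate 2 was the lowest of each group. Aldoc fell 1.78-fold with SFN (log2 fold change -0.83 ± 0.14, adjusted p = 0.00139) and -0.96 ± 0.15, adjusted p = 0.000225 with DAC + SFN.

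For Aldoa the control replicates 1, 2 and 3 gave 2712, 2096 and 2596 CPM, those of DAC 2748, 2205 and 2741, those of SFN 2567, 2343 and 2255 and those of DAC + SFN 2300.4, 2404 and 2079. Pgk1 had 3315, 2211 and 3281 CPM in the 3 controls, in order of replicate number, 3483, 2486 and 3207 after DAC, 2785, 2692 and 2869 after SFN and 2288, 2659.6 and 2793 after DAC + SFN. Aldoa is the ubiquitous aldolase and Pgk1 the kinase of the first ATP-making step, and neither passed with any treatment. In replicates 1, 2 and 3, Gpi1 measured 1210.0, 1005 and 1159 CPM in control, then 1142, 1044 and 1178 after DAC, 1166, 1168 and 1028 after SFN and 1084, 1162 and 954 after DAC + SFN. Pgam1 stood at 1471, 1134 and 1539 CPM in control replicates 1, 2 and 3, at 1469, 1235 and 1507 after DAC, at 1446, 1403 and 1455 after SFN and at 1271, 1432 and 1322 after DAC + SFN. For Pkm the control replicates 1, 2 and 3 gave 4382, 3456 and 4126 CPM, those of DAC 4014, 3491 and 4074, those of SFN 4286, 4181 and 3704 and those of DAC + SFN 3864, 4262 and 3338. Gpi1 (glucose phosphate isomerase), Pgam1 (phosphoglycerate mutase) and Pkm (pyruvate kinase) did not pass, either. For these 5 enzymes the fitted log2 change with DAC + SFN lay between -0.16 (Pgk1) and -0.03 (Pgam1), with SE of 0.08 to 0.11. These values average replicates that moved in opposite directions, and without replicate number 2, Aldoa, Pgk1, Pgam1 and Pkm passed with DAC + SFN (log2 fold changes of -0.29, -0.39, -0.22 and -0.25). Many of these abundant enzymes have processed pseudogenes, and how reads were divided among such copies beyond the use of uniquely aligned reads was not tested. Per kilobase, Pgk1 was the most abundant of the genes with a length (1308 ± 280 CPM in control), followed by Pkm at 797 ± 95.6, Pgam1 at 697 ± 109 and Tpi1 at 664 ± 160. The range of Pgk1 over the 3 controls lay above those of the next 3, which overlapped one another. No length was set for Aldoa, since the annotation gives this symbol to 2 genes.

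Of the 3 tested genes that handle pyruvate and lactate, none passed with SFN (13.9% of all genes), and Ldha and Slc16a3 fell with DAC + SFN (14.7% of all genes fell). All 3 were above their own control in replicate 2 with both treatments. Ldha had 2328, 1493 and 2232 CPM in the 3 controls, in order of replicate number, 2288, 1594 and 2199.5 after DAC, 2009, 1707 and 1906 after SFN and 1497, 1664 and 1653 after DAC + SFN. Ldha, which turns pyruvate into lactate, kept its 3 DAC + SFN values together, above control replicate 2 and below the other controls. Ldha fell 1.23-fold with DAC + SFN (log2 fold change -0.30 ± 0.11, adjusted p = 0.0496), a call at the limit that was lost in 7 of the 12 fits with a library left out (adjusted p of up to 0.299). In replicates 1, 2 and 3, Slc16a3 measured 132, 22.8 and 140.5 CPM in control, then 113, 28.3 and 134 after DAC, 79.7, 25.6 and 64.6 after SFN and 34.2, 35.5 and 48.0 after DAC + SFN. Slc16a3, the lactate exporter MCT4, went down in replicates 1 and 3 and up in replicate 2. In the pooled fit Slc16a3 fell 1.99-fold with DAC + SFN (log2 fold change -0.99 ± 0.33, adjusted p = 0.0319), which was lost without replicate 1 or 3 of control or of DAC + SFN (adjusted p of up to 0.22). Pdk1 stood at 119, 32.9 and 115 CPM in control replicates 1, 2 and 3, at 113, 41.7 and 105 after DAC, at 75.2, 45.9 and 72.6 after SFN and at 48.7, 49.0 and 69.9 after DAC + SFN. Pdk1, which keeps pyruvate out of mitochondria by inhibiting pyruvate dehydrogenase, did not pass (-0.51 ± 0.23, adjusted p = 0.103 with DAC + SFN).

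Against DAC alone, DAC + SFN changed 9 of the 33 genes (27.3%), and 16.1% of all genes. The 2 that rose were Slc2a3 and Hk1 (9.55% of all genes rose). The 7 that fell were Mgarp, Ndrg1, Stc1, Aldoc, Ankrd37, Bnip3l and Tpi1 (6.6% of all genes fell), of which Mgarp, Stc1 and Ankrd37 passed the 2-fold mark (0.198%). With each of the 12 libraries left out in turn, only Mgarp and Ndrg1 kept their calls every time. The count was 5 without DAC replicate 1, 2 without DAC + SFN replicate 1, 15 without control replicate 2 and 21 without DAC + SFN replicate 2. Against SFN alone, DAC + SFN changed none of the 33 (1.61% of all genes), with 1 at an unadjusted p under 0.05 (Mgarp, -0.63 ± 0.24, adjusted p = 0.184) and none by DESeq2. Without DAC + SFN replicate 2, 1 gene passed, and with only these groups in the fit 6 did, all of them lower with DAC + SFN. No member had an interaction of DAC and SFN (0% of all genes, and none at an unadjusted p under 0.05 or by DESeq2). In that test the 95% confidence intervals had a median half-width of 0.42, so that smaller interactions were not detectable. In both of these comparisons the labelled SFN doses are unequal.

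The levels of these genes also differed between replicate numbers, a comparison with 4 libraries on each side. Over the 4 conditions, 23 of the 33 genes differed between replicate numbers (69.7%), against 33.9% of all genes, and the libraries with number 2 stood apart. Between replicate numbers 2 and 1, 22 of the 33 differed (26.1% of all genes), 21 of them lower in 2 (12.9% of all genes) and 1, Pfkfb3, higher (13.2%). The median of the 33 was -0.37 and that of all genes 0.00. Between numbers 3 and 1, none of the 33 passed (6.56% of all genes) and 1 had an unadjusted p under 0.05. This replicate test holds treated and untreated libraries, and the count ran from 16 to 28 with 1 library left out and was 14 in a robust fit. As the library numbers in the labels run with the replicate number, a batch of libraries and a repeat of the culture cannot be told apart. The markers of the line differed, too: 6 of the 7 melanocyte markers were lower in number 2 than in 1 (12.9% of all genes), by 0.40 ± 0.04 on the log2 scale for Tyr. Of the 2 tested fibroblast markers, Col1a1 was lower by 1.94 ± 0.14, and Pdgfra was level at means of 1.74 CPM in number 1 and 1.75 in number 2. Tyr did not pass between numbers 3 and 2 (0.03 ± 0.04), whereas Col1a1 was higher in 3 by 3.96 ± 0.14. By mean CPM, Tyrp1, Mlana and Sox10 were lower in 3 than in 2, and Tyr, Dct, Pmel and Mitf were higher. Their part in the result was not tested.

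**Figure D3:**
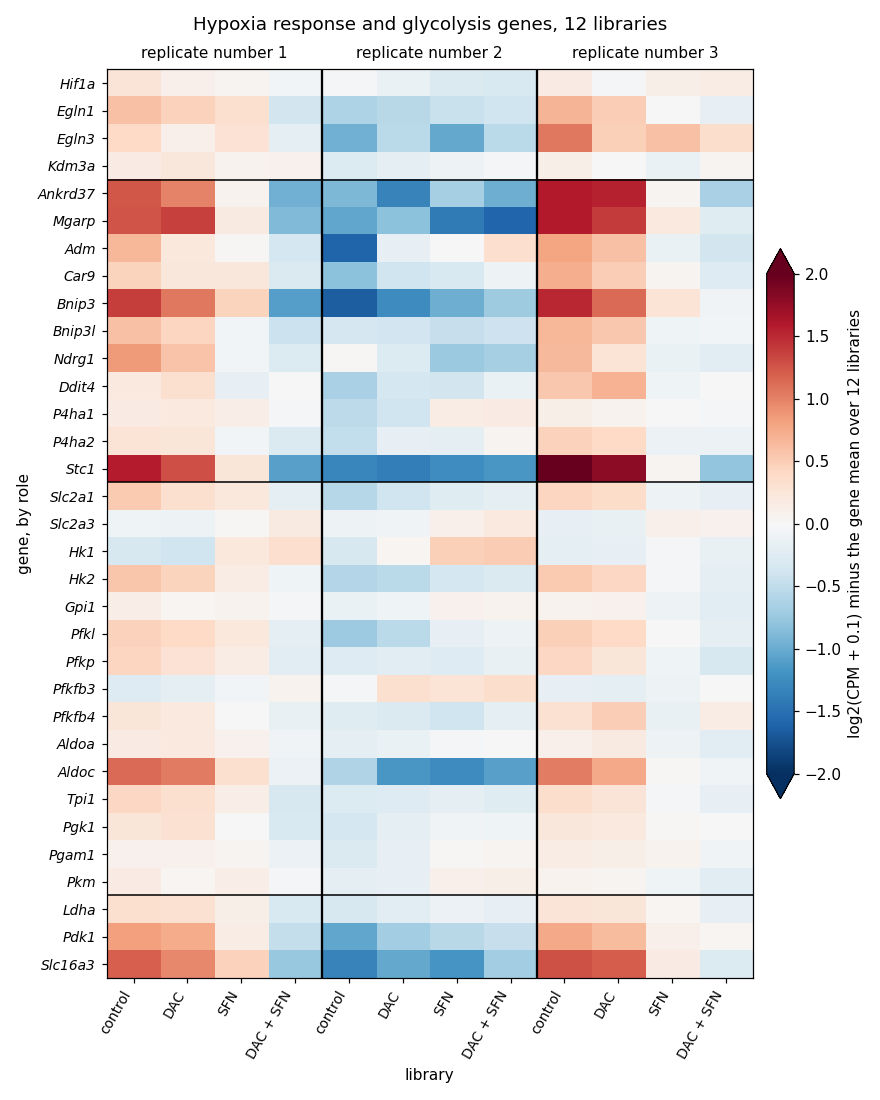
Level of the 33 tested genes (rows, grouped by role) in the 12 libraries (columns, ordered by replicate number), as log2(CPM + 0.1) minus the mean of the gene over the 12 libraries, with colours cut off at ±2. The control and DAC columns are mostly red in replicate numbers 1 and 3 and mostly blue in 2, with Pfkfb3, Hk1 and Slc2a3 among the exceptions. The DAC + SFN columns of the 3 numbers look more alike than the controls do.

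The 6 genes that were over 2-fold lower in number 2 than in 1 were Stc1, Mgarp, Aldoc, Bnip3, Slc16a3 and Ankrd37 (0.988% of all genes). The fold in that comparison was 3.97 for Stc1 (-1.99 ± 0.37, adjusted p = 0.00132), 3.62 for Mgarp (-1.85 ± 0.20, adjusted p = 2.17e-05) and 3.09 for Aldoc (-1.63 ± 0.13, adjusted p = 1.4e-06). It was 2.92 for Bnip3 (-1.55 ± 0.36, adjusted p = 0.00644), 2.83 for Slc16a3 (-1.50 ± 0.29, adjusted p = 0.00182) and 2.71 for Ankrd37 (-1.44 ± 0.35, adjusted p = 0.00806). The sensing genes were lower as well, Egln3 by a fold of 1.91 (-0.94 ± 0.18, adjusted p = 0.00176), Egln1 by 1.68 (-0.74 ± 0.15, adjusted p = 0.00201) and Hif1a by 1.21 (-0.28 ± 0.06, adjusted p = 0.00356). Ndrg1 was lower by a fold of 1.62 (-0.70 ± 0.07, adjusted p = 7.93e-06). Each of these calls held with every single library left out.

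The place of replicate 2 within its group moved with the treatment. In control, 31 of the 33 genes were lowest in replicate 2, and 37.5% of all genes were. The count was 30 with DAC (35.8% of all genes), 24 with SFN (36.2%) and 12 with DAC + SFN (34.6%). The 33 genes together took 1.42% of the counts in control replicate 2, and 2.08% and 2.04% in control replicates 1 and 3. With DAC + SFN they took 1.56%, 1.68% and 1.63% in replicates 1, 2 and 3, so that the 3 repeats lay closer together there. The mean standardised level of 11 tested genes known as HIF targets (Ankrd37, Mgarp, Adm, Car9, Bnip3, Egln3, Ndrg1, P4ha1, P4ha2, Kdm3a and Stc1) was 1.07, -1.43 and 1.30 in control replicates 1, 2 and 3. This set differs from the 11 non-metabolic targets counted above, which hold Bnip3l and Ddit4 in place of Egln3 and Kdm3a. The DAC libraries had 0.85, -0.93 and 0.91, the SFN libraries 0.23, -0.74 and -0.02, and the DAC + SFN libraries -0.55, -0.45 and -0.25. Replicates 1 and 3 came down by treatment and replicate 2 came up.

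Counted within each replicate number, most of these genes went down with treatment in numbers 1 and 3 and up in number 2. With SFN, 30, 7 and 30 of the 33 genes were lower than the control of the same number in replicates 1, 2 and 3, and with DAC + SFN 30, 6 and 30. With DAC, which had no call, the counts were 26, 7 and 27. Of all genes, 47.9% to 50.2% were lower in each of these 9 differences. The median difference of the 33 was -0.26, 0.22 and -0.50 for SFN in numbers 1, 2 and 3, and it was -0.64, 0.30 and -0.59 for DAC + SFN. All of them use the same control library within a number. Without the controls, DAC + SFN was lower than DAC for 30, 5 and 28 of the 33 genes, with medians of -0.53, 0.21 and -0.51.

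**Figure D4:**
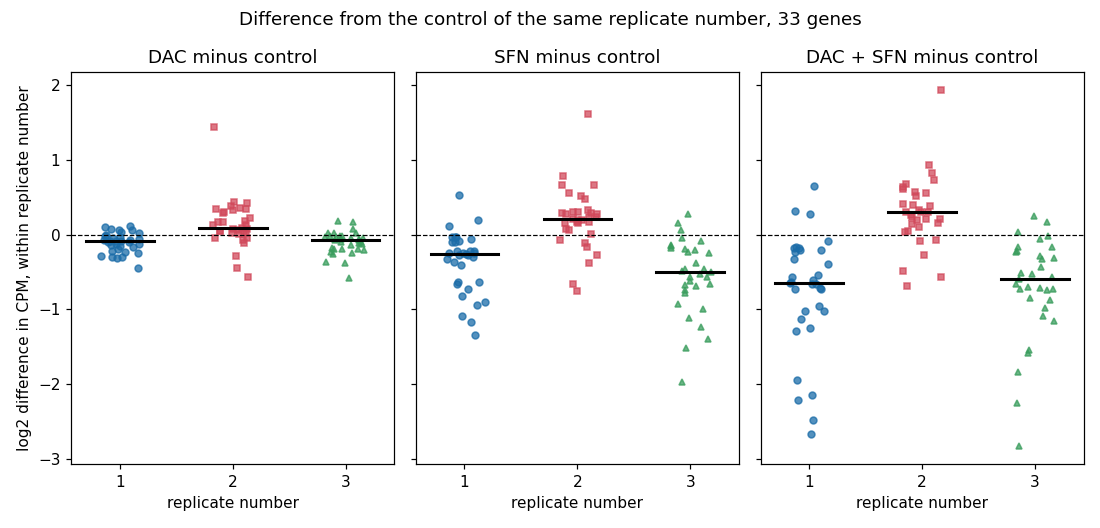
Log2 difference in CPM from the control of the same replicate number for the 33 tested genes (1 point per gene, black bar at the median), for DAC, SFN and DAC + SFN. In replicates 1 and 3 the medians with SFN and DAC + SFN lie between -0.26 and -0.64, and in replicate 2 at 0.22 and 0.30.

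The difference in the SFN response was tested in a model chosen after these values were seen, in which the effect of SFN (with and without DAC, 2 pairs of libraries per number) was estimated for each replicate number. The response in number 2 differed from the mean of numbers 1 and 3 for 25 of the 33 genes (75.8%), against 4.05% of all genes. It was higher in number 2 for all 25, where 2.76% of all genes were higher, and the median difference over the 33 was 0.62 on the log2 scale. The values were 2.16 ± 0.39 for Stc1 (adjusted p = 0.00295), 1.96 ± 0.29 for Bnip3 (0.000512) and 1.503 ± 0.26 for Slc16a3 (0.00231). These are differences between numbers. Within number 2 the SFN effect did not pass for Stc1 (0.09 ± 0.36), Bnip3 (0.63 ± 0.25) or Slc16a3 (0.27 ± 0.23). Of the 33, 15 rose and 2 fell within number 2 (15.9% and 12.9% of all genes). Within numbers 1 and 3, 21 and 24 fell (12.8% and 7.81%). Among the abundant enzymes, the difference was 0.50 ± 0.08 for Pgk1 (0.000656), 0.41 ± 0.07 for Pkm (0.00161) and 0.49 ± 0.08 for Ldha (0.00136). Ndrg1 (0.17 ± 0.09), Hk1 (0.26 ± 0.09), Hif1a (-0.16 ± 0.06), Egln3, Mgarp, Pfkfb3, Pfkfb4 and Slc2a3 did not pass. Between numbers 3 and 1 the SFN response differed for 3 of the 33 (9.09%, and 8.39% of all genes). Number 2 is a single repeat of the experiment, so the test compares these libraries and not 2 kinds of culture. All 6 tested NRF2 targets were higher than their control in every replicate with SFN and with DAC + SFN, with medians of 0.90, 1.12 and 0.75 with SFN in numbers 1, 2 and 3.

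Without the 4 libraries of number 2, more of these genes fell. With SFN, 18 of the 33 genes changed, all of them down, where 1.79% of all genes fell. With DAC + SFN, 25 changed, all down, where 7.18% of all genes fell, and 8 of them fell by more than 2-fold. Stc1 fell by 2.83 ± 0.23 on the log2 scale with DAC + SFN in that fit (adjusted p = 0.00018), Bnip3 by 1.98 ± 0.22 (0.000527), Slc16a3 by 1.75 ± 0.15 (0.00019) and Hk2 by 0.69 ± 0.07 (0.000317). Hk1 (0.34 ± 0.14 with SFN) no longer passed with either treatment, and Hif1a (-0.18 ± 0.09), Slc2a3 (0.25 ± 0.09) and Pfkfb3 (0.24 ± 0.09) no longer passed with DAC + SFN. Since the libraries were left out after their values were seen, these counts describe replicates 1 and 3 and do not test the treatment afresh.

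Other genes of the same pathways were taken from written lists, and their counts stand beside 8.27% of all genes up and 5.65% down with SFN, and 17% up and 14.7% down with DAC + SFN. Of 39 tested further hypoxia genes, 4 rose and 6 fell with SFN, and 7 rose and 12 fell with DAC + SFN. Those with the smallest adjusted p with DAC + SFN were Tgfb3, a growth factor gene, which rose (0.74 ± 0.09, adjusted p = 4.48e-05), and Bhlhe41, a transcriptional repressor, and Vldlr, a lipoprotein receptor, which fell (-0.47 ± 0.06, adjusted p = 9.46e-05 and -1.28 ± 0.19, adjusted p = 0.000168). These 3 went 1 way in all 3 numbers. Over the list, 29, 11 and 30 of the 39 were below the control of replicates 1, 2 and 3 after SFN treatment, as were 27, 7 and 26 after DAC + SFN, where 47.9% to 50.2% of all genes were. Of 18 further glycolysis and gluconeogenesis genes, 2 rose and 2 fell with SFN, and 3 rose and 2 fell with DAC + SFN. Pck2, the mitochondrial phosphoenolpyruvate carboxykinase, fell (-0.75 ± 0.07, adjusted p = 6.77e-06), as did Slc2a4, the insulin-responsive transporter (-1.08 ± 0.25, adjusted p = 0.0042), and the enolase Eno2 rose (0.70 ± 0.14, adjusted p = 0.0016). Of the 18, 7, 7 and 9 were lower with SFN in replicates 1, 2 and 3. Of 18 genes of pyruvate metabolism and the pentose phosphate pathway, 3 rose and 2 fell with SFN, and 4 rose and 4 fell with DAC + SFN. G6pdx, the first enzyme of that pathway, rose (0.90 ± 0.08, adjusted p = 4.43e-06), as did the transaldolase Taldo1 (0.63 ± 0.11, adjusted p = 0.000721), and Mpc1, a subunit of the mitochondrial pyruvate carrier, fell (-0.46 ± 0.08, adjusted p = 0.000675).

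Among the tested genes outside the 33, the 10 whose log2 CPM followed the score of the 11 HIF targets most closely over the 12 libraries were Loxl2, Ak4, Appl2, Fam162a, Vegfa, Gys1, Plekha2, Higd1a, Rgs11 and Wdr90, with Pearson's r from 0.981 to 0.965. These are descriptive, and the 12 libraries share the split by replicate number. Among the 33 genes themselves, r with the score was 0.985 for Pdk1, 0.982 for Slc16a3 and 0.981 for Slc2a1, which are not part of the score, and it was -0.73 for Pfkfb3, -0.48 for Slc2a3 and -0.44 for Hk1.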

How the data were processed

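For each of the 12 libraries the authors deposited raw counts of reads per gene symbol, without normalization. Per the labels and methods, stranded poly(A) libraries were checked with FastQC 0.11.7, trimmed with Trimmomatic 0.38, aligned to mm10 with TopHat2 2.1.1 and counted with HTSeq, with uniquely aligned reads kept. The annotation used for counting is not given in the sources used here. Genes that reached 1 CPM in 3 or more libraries were retained, scaled by TMM (the CPM printed carry this scaling) and tested two-sided with edgeR 4.0.16 in R 4.3.3 (quasi-likelihood, legacy fit), with Benjamini-Hochberg adjustment over all 11638 genes. The replicate number was a block. Libraries of different groups with the same number deviated together (mean r = 0.544 over 18 pairs, lowest 0.27), so the numbers pair the samples. Those with different numbers on average did not (mean r = -0.267 over 36 pairs, highest 0.282), a value not independent of the first. No source says what a number marks beyond a repeat. Differences within a replicate number used a prior count of 2. Gene lengths are exon unions of GENCODE on mm10, and promoter sequences are from RefSeq.

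The members and lists were chosen with earlier results of these data known. Every member could be named. Values in every library were given for members past a 2-fold change, the 6 with the smallest adjusted p of each comparison, the sensing genes and the most abundant member of each glycolytic step, and a few others were added after their values were seen. From each further list, the 3 with the smallest adjusted p were named. The fit was tested on simulated counts, and the outcome is not reported here. Alternatives were DESeq2 1.42.0, its size factors, 2 other filters, no block, a robust fit, only the groups compared, and each library or replicate number left out. Doses were taken from the labels.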

Additional observations from a re-analysis of the deposited data

Results flagged for a closer look

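The effect of SFN differed between replicate numbers. In a model chosen after the data were seen, the response in number 2 differed from the mean of numbers 1 and 3 for 25 of the 33 tested genes at an adjusted p under 0.05 in edgeR's quasi-likelihood test (4.05% of all genes), and in all 25 it was higher in number 2 (2.76% of all genes). The difference was above 1 on the log2 scale for 6 genes. It was 2.16 for Stc1, 2.00 for Ankrd37, 1.96 for Bnip3, 1.78 for Adm, 1.503 for Slc16a3 and 1.13 for Pdk1. Within number 2 alone, the SFN effect passed for Adm and Pdk1, and not for Stc1, Ankrd37, Bnip3 and Slc16a3. Number 2 is a single repeat, set against 2 others.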

How the results depend on the processing

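No named call reversed under any alternative. Over the named gene tests, 790 values kept their side of the threshold, 157 lost it and 18 gained it. Those that gained it were Ankrd37 with SFN (8), Bnip3 with DAC + SFN (6) and with SFN (2), and Ndrg1 with DAC (2). Without the replicate block, which leaves the difference between numbers in the error, 0 of the 33 genes changed with SFN, 2 with DAC + SFN and 0 in DAC + SFN against DAC, in place of 6, 15 and 9. The pairing thus decides these counts. DESeq2 gave 5 for DAC + SFN against DAC. Without a filter on low counts, 1 gene changed with DAC and 17 in DAC + SFN against DAC. A robust fit gave 3 with SFN and 14 between replicate numbers. With only the groups compared in the fit, 10 changed with SFN, 4 with DAC and 6 in DAC + SFN against SFN. Apart from the fit without the block, the cause of these differences was not tested. With a library or a replicate number left out, the counts ran from 2 to 18 with SFN, from 3 to 25 with DAC + SFN, from 2 to 22 for DAC + SFN against DAC, and from 0 to 1 for DAC + SFN against SFN, and stayed at 0 with DAC and for the interaction. With a single library left out, 16 to 28 differed between replicate numbers. The other counts of these comparisons stayed within 1.5 times. Depth limits the low genes: Ankrd37 and Stc1 rested on 9 to 26 and 16 to 34 counts in the libraries where they were lowest.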
